A study of Homo sapiens with 12 samples.

Results

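The genes described here are 8 enzymes of keratinocyte maturation, 4 transglutaminases (TGM1, TGM2, TGM3 and TGM5) and 4 peptidylarginine deiminases (PADI1, PADI2, PADI3 and PADI4). They were chosen by name, with earlier results of these data known, and each was found once among the 58735 genes of the count table. The RNA came from N/TERT-2G keratinocytes, a human skin line immortalised with telomerase, sequenced in 4 groups of 3 libraries. The groups received siRNA against ATF3 (a stress-induced transcription factor), siRNA against APOE (the lipid carrier apolipoprotein E), siRNA against CXCL14 (a chemokine of skin) or a negative control siRNA. All 4 groups, controls included, were transfected below full density with 100 pmol of siRNA and 5 µl of lipid transfection reagent (Lipofectamine) per well of a 6-well plate, and their medium was changed after 6 h. The labels used here state neither the time of harvest nor the siRNA sequences, and all libraries come from a single line, so that donors were not sampled.

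Transglutaminases are calcium-dependent enzymes that join glutamine to lysine side chains. In epidermis this cross-linking welds involucrin, small proline-rich proteins and loricrin into the cornified envelope of the outermost cells. Deiminases, also calcium-dependent, turn arginine into citrulline; in epidermis this loosens filaggrin from keratin filaments and precedes the breakdown of filaggrin into the amino acids that keep the skin surface hydrated.

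The libraries held 16225691 to 22246755 counted reads. All 12 keratinocyte markers, KRT5 and KRT14 among them, exceeded 1 CPM (the CPM unit: read counts scaled to a common library size and composition) in every group. Their summed level was 34039 to 37143 CPM with ATF3 siRNA, 41794 to 44543 CPM with APOE siRNA, 22378 to 23449 CPM with CXCL14 siRNA and 33049 to 35951 CPM with control siRNA. With CXCL14 siRNA 10 of these markers were lower and 1 was higher than with control siRNA, against 28.4% and 27.4% of all tested genes. With APOE siRNA 7 were higher and 2 lower, against 22.3% and 22.5% of all tested genes. With ATF3 siRNA 4 were higher and 2 lower, against 11.2% and 9.14%. The part of these marker changes in the enzyme results was not tested. Each siRNA lowered its own target in the edgeR quasi-likelihood test, ATF3 by a log2 fold change of -1.81 (adjusted p = 1.37e-09), APOE by -4.02 (adjusted p = 1.67e-07) and CXCL14 to 2 counts in all, against 24 in the control libraries (adjusted p = 0.0143). Of the 8 enzyme genes 5 passed the filter on low counts and were tested within a fit of 14920 genes, in which a gene was called at a Benjamini-Hochberg adjusted p under 0.05; TGM3, TGM5 and PADI4 did not pass it. The libraries of a group are not stated to be separate cultures, so the p-values cover only differences among these libraries, and that spread may be technical. In bulk RNA a smaller share of cells of one kind and less RNA per cell cannot be told apart.

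TGM1, the membrane-bound keratinocyte transglutaminase whose loss causes lamellar ichthyosis, was much higher after 2 of the 3 knockdowns. Its level was 63.3, 95.1 and 108 CPM with ATF3 siRNA, 52.0, 47.1 and 43.9 CPM with APOE siRNA, 13.3, 10.2 and 9.17 CPM with CXCL14 siRNA, and 9.84, 10.1 and 14.7 CPM with control siRNA. Every ATF3 siRNA library lay above every APOE siRNA library, both groups lay above all control libraries, and the CXCL14 siRNA libraries overlapped the controls. TGM1 rose by a log2 fold change of 2.94 ± 0.19 with ATF3 siRNA (SE, edgeR adjusted p = 4.49e-08), a 7.68-fold difference that ranked 11 among the 14920 genes by size. It rose by 2.05 ± 0.19 with APOE siRNA (adjusted p = 3.61e-07). With CXCL14 siRNA the log2 difference was -0.08 ± 0.21 and did not pass the test (edgeR adjusted p = 0.759), with a 95% interval of -0.53 to 0.36. The ATF3 siRNA libraries spread widely around their mean of 88.8 ± 23.0 CPM, against 11.5 ± 2.72 CPM in control libraries (SD, n = 3 each).

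TGM2, the widely expressed tissue transglutaminase that also acts on extracellular matrix, followed another pattern. It reached 12.9, 12.6 and 13.7 CPM with ATF3 siRNA, 3.0, 3.17 and 1.85 CPM with APOE siRNA, 11.5, 10.6 and 12.4 CPM with CXCL14 siRNA, and 2.96, 4.49 and 4.71 CPM with control siRNA. The ATF3 and CXCL14 siRNA libraries all stood above the controls, while the APOE siRNA libraries overlapped them. In the edgeR test TGM2 rose by a log2 fold change of 1.68 ± 0.17 with ATF3 siRNA (adjusted p = 5.05e-06) and by 1.51 ± 0.17 with CXCL14 siRNA (adjusted p = 1.55e-06). With APOE siRNA it fell by 0.58 ± 0.20 on the log2 scale (edgeR adjusted p = 0.0282), a call lost in 8 of 17 other settings, among them leaving out APOE siRNA library 3 (0.119), control library 2 (0.103) or control library 3 (0.106). The gene RPRD1B lies on the other strand and shares 394 bases with TGM2, and no source used here says whether reads were counted by strand. RPRD1B averaged 97.1 ± 5.11 CPM with ATF3 siRNA, 90.0 ± 4.35 CPM with APOE siRNA, 31.3 ± 2.83 CPM with CXCL14 siRNA and 107 ± 2.33 CPM with control siRNA (SD, n = 3 each). It was lower with CXCL14 siRNA by -1.78 ± 0.07 on the log2 scale (edgeR adjusted p = 2.07e-11), where TGM2 was higher. RPRD1B was also lower with APOE siRNA, by -0.25 ± 0.07 (edgeR adjusted p = 0.00806), where TGM2 was lower too. With ATF3 siRNA, where TGM2 was higher, RPRD1B was not called (-0.14 ± 0.07, edgeR adjusted p = 0.17). The part of shared reads in the TGM2 values was not tested.

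The epidermal transglutaminases of later stages were scarcely detected. TGM3, an enzyme of the upper epidermis and hair follicle, had 10, 0 and 3 counts with ATF3 siRNA, 2, 1 and 0 with APOE siRNA, 0, 2 and 0 with CXCL14 siRNA, and 1, 1 and 0 with control siRNA. TGM5, whose loss causes acral peeling of the skin, had 3, 3 and 0 counts with ATF3 siRNA, 5, 0 and 2 with APOE siRNA, 6, 4 and 1 with CXCL14 siRNA, and 0, 0 and 1 with control siRNA. The groups overlapped for TGM3 and TGM5 in all 6 comparisons, and with no filter on low counts edgeR called neither. A count of 0 allows up to 3 counts, or 0.135 to 0.191 CPM depending on the library, as a limit of counting error only. Among the relatives outside the 8 genes, TGM6, TGM7 and EPB42 were at 0 in all 12 libraries, and F13A1 and F13B, the subunits of coagulation factor XIII, had 2 and 1 counts in all.

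TGM4, the prostate transglutaminase, is a relative that did pass the filter. It had 16, 10 and 10 counts with ATF3 siRNA, 6, 2 and 6 with APOE siRNA, 19, 11 and 14 with CXCL14 siRNA, and 0, 2 and 0 with control siRNA. The ratio to the control was 15.8 with ATF3 siRNA (95% counting interval 4.06 to 135), 6.50 with APOE siRNA (1.49 to 58.9) and 18.2 with CXCL14 siRNA (4.74 to 155). TGM4 passed the filter through the ATF3 and CXCL14 siRNA libraries in which it was high, so these ratios, all resting on the same 2 control counts, are given as a description without a test.

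**Figure D1:**
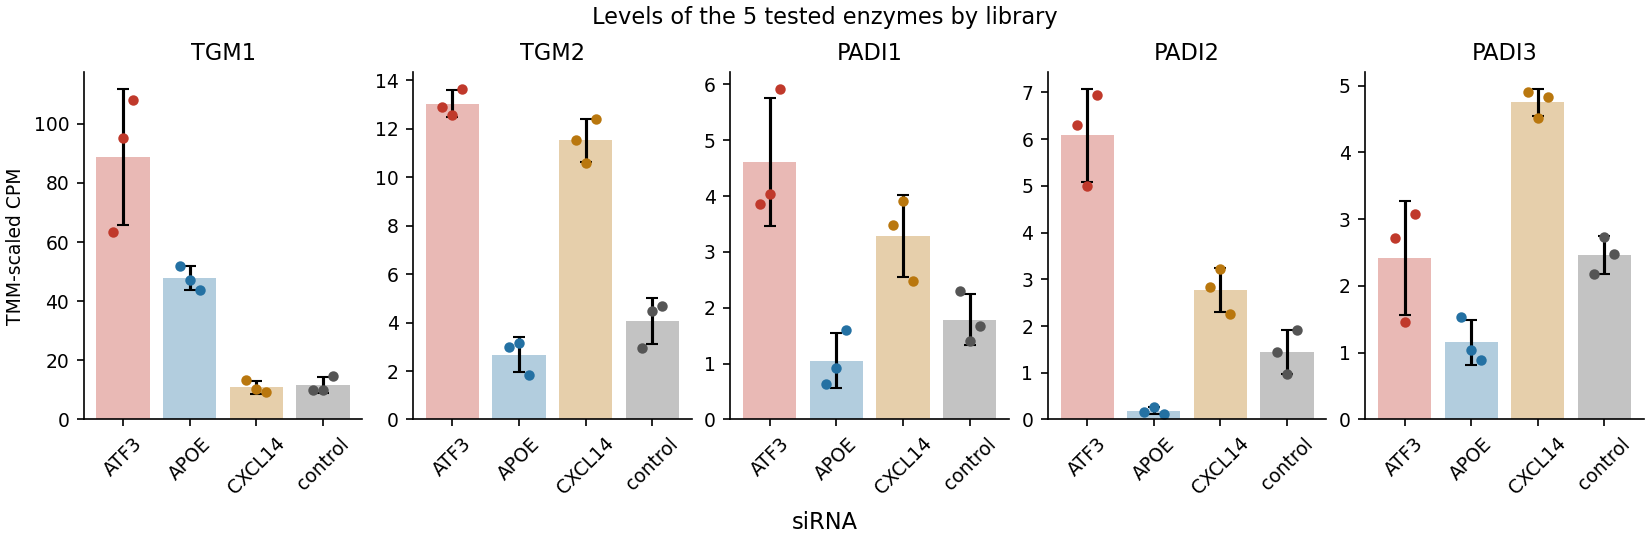
Level of the 5 tested genes (CPM, a linear axis of its own for each gene) by siRNA group; points are libraries, and bars with error bars are means ± SD of 3 libraries. TGM1 stands highest with ATF3 siRNA, at 63.3 to 108 CPM, and PADI2 stands lowest with APOE siRNA, at 0.127 to 0.273 CPM.

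PADI2, the most widely expressed deiminase, moved in opposite directions after the ATF3 and APOE knockdowns. It had 6.30, 5.00 and 6.95 CPM with ATF3 siRNA, 0.158, 0.273 and 0.127 CPM with APOE siRNA, 2.84, 3.21 and 2.26 CPM with CXCL14 siRNA, and 1.45, 0.972 and 1.92 CPM with control siRNA. No group overlapped another. The APOE siRNA values rest on 10 reads in all, against 71 in the control libraries. In the edgeR test PADI2 rose by a log2 fold change of 2.07 ± 0.24 with ATF3 siRNA (adjusted p = 1.91e-05), fell by 2.89 ± 0.41 with APOE siRNA (adjusted p = 2.94e-05) and rose by 0.93 ± 0.26 with CXCL14 siRNA (adjusted p = 0.00544). Set directly against APOE siRNA, ATF3 siRNA gave a log2 difference of 4.96 ± 0.33 for PADI2 (edgeR adjusted p = 1.27e-08), the largest in size among the 14920 genes in that comparison and fit.

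PADI1, a deiminase of the living epidermal layers, was higher with ATF3 siRNA and, less securely, with CXCL14 siRNA. Its level was 3.87, 4.04 and 5.92 CPM with ATF3 siRNA, 0.632, 0.930 and 1.59 CPM with APOE siRNA, 3.48, 3.92 and 2.48 CPM with CXCL14 siRNA, and 2.29, 1.40 and 1.67 CPM with control siRNA. All ATF3 and CXCL14 siRNA libraries exceeded the controls, whereas the highest APOE siRNA library lay among them. PADI1 rose by 1.35 ± 0.28 on the log2 scale with ATF3 siRNA (edgeR adjusted p = 0.00318) and by 0.87 ± 0.29 with CXCL14 siRNA (adjusted p = 0.0178). The CXCL14 siRNA call was lost without CXCL14 siRNA library 2 (0.0731), control library 2 (0.0801) or control library 3 (0.0509). With APOE siRNA the log2 difference was -0.79 ± 0.34 (edgeR adjusted p = 0.0731), with a 95% interval of -1.52 to -0.06; without APOE siRNA library 3 it was -1.20 and passed (0.0157).

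PADI3, the deiminase of the uppermost epidermis and hair follicle whose variants underlie uncombable hair, was called with CXCL14 and APOE siRNA and not with ATF3 siRNA. It had 2.71, 1.46 and 3.08 CPM with ATF3 siRNA, 1.53, 1.04 and 0.892 CPM with APOE siRNA, 4.90, 4.52 and 4.83 CPM with CXCL14 siRNA, and 2.17, 2.73 and 2.48 CPM with control siRNA. The CXCL14 siRNA libraries were the highest and close together, the APOE siRNA libraries lay below the controls, and the ATF3 siRNA libraries spanned the controls. PADI3 rose by 0.95 ± 0.23 on the log2 scale with CXCL14 siRNA (edgeR adjusted p = 0.00255) and fell by 1.07 ± 0.28 with APOE siRNA (adjusted p = 0.00522). With ATF3 siRNA the log2 difference was -0.02 ± 0.25 (edgeR adjusted p = 0.963), with a 95% interval of -0.56 to 0.51 that covers changes in either direction.

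PADI4, the nuclear deiminase of neutrophil chromatin traps, was near the detection limit. It had 1, 3 and 2 counts with ATF3 siRNA, 3, 0 and 2 with APOE siRNA, 0, 3 and 2 with CXCL14 siRNA, and 3, 0 and 0 with control siRNA. Its groups overlapped, and with no filter on low counts edgeR did not call it against control siRNA (adjusted p = 0.859 with ATF3 siRNA, 0.904 with APOE siRNA and 0.938 with CXCL14 siRNA). PADI6, the oocyte deiminase next to it on the chromosome, had 3 counts in all libraries together. Of the 12 leukocyte markers 7 were at 0 in all 12 libraries, PTPRC, CD3E, LYZ and the neutrophil genes CSF3R, FCGR3B and ELANE among them, and CD14 was the only marker of that list above 1 CPM. The leukocyte markers summed to 3.04 to 5.26 CPM with ATF3 siRNA, 6.01 to 6.44 CPM with APOE siRNA, 1.31 to 1.53 CPM with CXCL14 siRNA and 2.23 to 3.34 CPM with control siRNA, nearly all of it CD14. The 8 fibroblast markers, of which only COL1A1 exceeded 1 CPM, summed to 32.5 to 40.7 CPM with ATF3 siRNA, 74.2 to 87.9 CPM with APOE siRNA, 14.6 to 17.8 CPM with CXCL14 siRNA and 25.4 to 34.2 CPM with control siRNA. The 7 melanocyte markers, of which TYR was at 0 in all libraries, summed to 3.37 to 3.99 CPM with ATF3 siRNA, 3.06 to 3.95 CPM with APOE siRNA, 6.59 to 6.75 CPM with CXCL14 siRNA and 3.38 to 4.19 CPM with control siRNA. The 6 endothelial markers summed to 0.725 to 0.736 CPM with ATF3 siRNA, 0.685 to 1.20 CPM with APOE siRNA, 1.37 to 1.76 CPM with CXCL14 siRNA and 0.486 to 0.743 CPM with control siRNA. The part of these shifts in the enzyme values was not tested.

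Counted together, 4 of the 5 tested genes were higher with ATF3 siRNA than with control siRNA and PADI3 was not called; among all tested genes 20.4% were called, 11.2% higher and 9.14% lower. With APOE siRNA 1 was higher and 3 were lower, against 44.8% of all genes called, 22.3% higher and 22.5% lower. With CXCL14 siRNA 4 were higher and TGM1 was not called, against 55.8% of all genes called, 27.4% higher and 28.4% lower. The median log2 fold change of the 5 genes was 1.68 with ATF3 siRNA, -0.79 with APOE siRNA and 0.93 with CXCL14 siRNA, beside medians of 0.0032, 0.012 and 0.013 over all tested genes in the same comparisons. The 3 comparisons share their control libraries, so their values are not independent of each other. Scaling by library size alone kept these calls, but moved the share of higher genes among all those called with ATF3 siRNA to 44.0%, against 55.2% with composition scaling. The same share moved to 41.3% (against 49.8%) with APOE siRNA and, in the other direction, to 55.7% (against 49.1%) with CXCL14 siRNA.

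**Figure D2:**
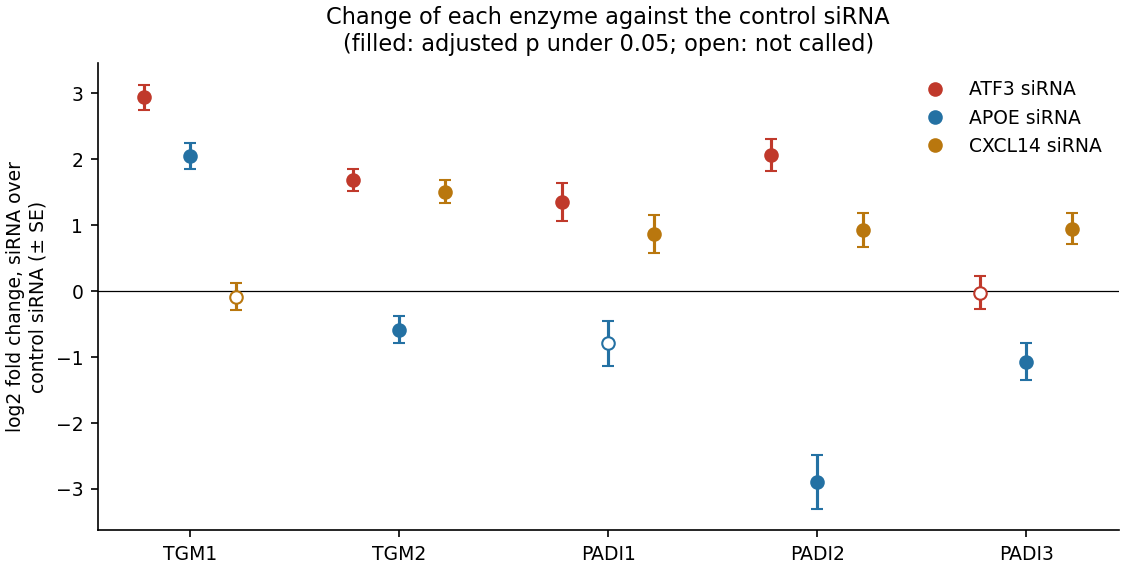
Log2 fold change of each tested gene with ATF3, APOE and CXCL14 siRNA over control siRNA; bars are SE, filled points passed edgeR at an adjusted p under 0.05 and open points did not. TGM1 is up with ATF3 siRNA (2.94) and APOE siRNA (2.05), and PADI2 is up with ATF3 siRNA (2.07) and down with APOE siRNA (-2.89).

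The 4 deiminase genes lie together on chromosome 1 (hg38, positions per the gene table), with PADI2 (ENSG00000117115, chr1:17066761-17119435) on the minus strand and PADI1 (ENSG00000142623, chr1:17205126-17246005), PADI3 (ENSG00000142619, chr1:17249098-17284233) and PADI4 (ENSG00000159339, chr1:17308195-17364004) on the plus strand. PADI2 is separated from PADI1 by 85690 bases, PADI1 from PADI3 by 3092 and PADI3 from PADI4 by 23961. PADI1 and PADI3, the closest pair, did not share their ATF3 siRNA values (1.35 and -0.02), and both had log2 fold changes near 0.9 with CXCL14 siRNA (0.87 and 0.95); the difference between the 2 genes was not tested. The transglutaminase genes are scattered: TGM1 (ENSG00000092295) at chr14:24249114-24264432 on the minus strand, TGM2 (ENSG00000198959) at chr20:38127387-38166578 on the minus strand, TGM3 (ENSG00000125780) at chr20:2296001-2341078 on the plus strand, and TGM5 (ENSG00000104055) at chr15:43232595-43266857 on the minus strand between EPB42 and TGM7.

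**Figure D3:**
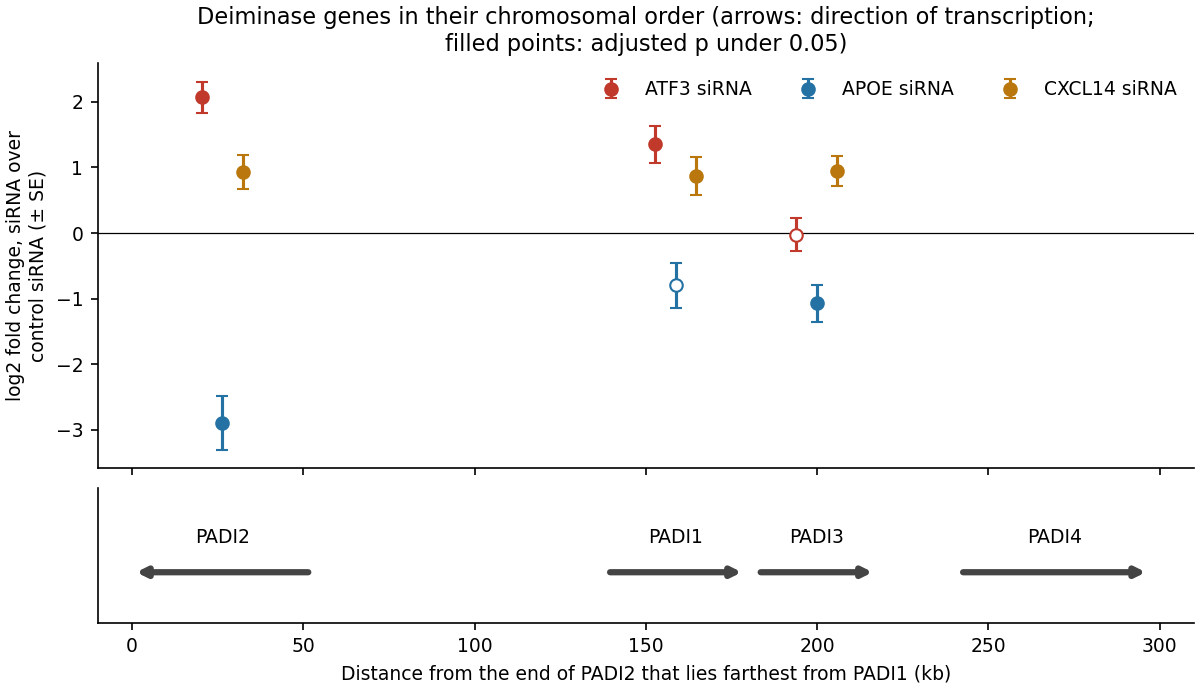
Log2 fold change over control siRNA (upper panel, bars are SE, filled points passed edgeR at an adjusted p under 0.05) drawn above the deiminase genes in their order along the chromosome (lower panel, distance in kb, arrows point with transcription). All 3 tested deiminases had a positive value with CXCL14 siRNA (0.93, 0.87 and 0.95) and a negative one with APOE siRNA (-2.89, -0.79 and -1.07).

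The promoters of PADI2 and PADI1 are shown because these genes of the cluster had the largest ATF3 siRNA changes and contrast in base composition. They are RefSeq sequences (GRCh38.p14) from 250 bases before to 50 bases after the start of the gene, chr1:17119402-17119701 on the minus strand for PADI2 and chr1:17204878-17205177 on the plus strand for PADI1, each read 5′ to 3′ along the gene. Capitals mark CpG dinucleotides, the sites at which DNA is methylated.
PADI2: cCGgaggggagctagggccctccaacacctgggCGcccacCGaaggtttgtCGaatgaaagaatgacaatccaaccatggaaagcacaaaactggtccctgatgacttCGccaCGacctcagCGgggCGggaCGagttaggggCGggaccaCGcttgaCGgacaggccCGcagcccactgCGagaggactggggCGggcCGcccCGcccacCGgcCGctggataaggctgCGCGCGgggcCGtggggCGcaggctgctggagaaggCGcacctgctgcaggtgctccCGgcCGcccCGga
PADI1: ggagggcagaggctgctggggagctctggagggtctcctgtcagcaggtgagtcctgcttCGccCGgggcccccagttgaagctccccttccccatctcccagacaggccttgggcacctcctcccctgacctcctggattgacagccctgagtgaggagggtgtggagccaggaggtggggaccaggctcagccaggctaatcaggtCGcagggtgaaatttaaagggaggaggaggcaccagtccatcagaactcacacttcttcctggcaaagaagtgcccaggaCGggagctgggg
The PADI2 promoter had 28 CpG and 69.0% G and C, and 73.8% of 35116 RefSeq promoters had fewer CpG. The PADI1 promoter had 4 CpG and 63.0% G and C, and 24.5% of promoters had fewer CpG. Both lie above the median G and C content of 58.7%, and on either side of the median of 14 CpG. No methylation was measured in these cells. Promoters of 5 of the 8 genes were matched (TGM3, TGM5, PADI1, PADI2 and PADI4); those of TGM1, TGM2 and PADI3 were not used here.

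Letters of 3 motifs were searched on both strands of these 5 promoters. The AP-1 motif TGANTCA, bound by the family to which ATF3 belongs, was in the PADI4 promoter, as TGACTCA 54 bases before the start, and in 7.71% of all promoters. The CRE motif TGACGTCA was in 0 of the 5 and in 1.85% of all promoters. The motif AACNGGTT of the grainyhead-like factors was in the TGM5 promoter, as AACCAGTT 96 bases before the start, and in 1.73% of all promoters. The 3 motifs do not overlap each other in these windows, and the 2 genes with a match were below the filter.

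Per unit of transcript length, as the deposited FPKM values (fragments scaled by gene length and depth), TGM1 was the most abundant of the 8 genes in every group. It averaged 23.3 ± 6.02 FPKM with ATF3 siRNA, 12.5 ± 1.11 with APOE siRNA, 2.89 ± 0.576 with CXCL14 siRNA and 3.05 ± 0.705 with control siRNA (SD, n = 3 each). In control libraries the order after TGM1 was PADI3 (0.763 ± 0.0867 FPKM), TGM2 (0.498 ± 0.116), PADI1 (0.360 ± 0.0934) and PADI2 (0.239 ± 0.0773). Control libraries of PADI3 all lay above those of TGM2, while TGM2 overlapped PADI1 and PADI1 overlapped PADI2. With ATF3 siRNA TGM2 (1.59 ± 0.0670 FPKM) came second, and PADI2 (0.998 ± 0.163), PADI1 (0.923 ± 0.227) and PADI3 (0.745 ± 0.262) overlapped each other. With APOE siRNA PADI2 was the lowest tested gene at 0.0305 ± 0.0125 FPKM, under PADI1 at 0.210 ± 0.0976 without overlap. With CXCL14 siRNA PADI3 (1.47 ± 0.0661 FPKM) and TGM2 (1.42 ± 0.113) overlapped at about the same level.

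The make-up of each family was computed as shares of the summed FPKM of the 4 genes of a family. TGM1 held 92.9 ± 2.20% of the transglutaminase sum with ATF3 siRNA, 97.1 ± 0.625% with APOE siRNA, 65.7 ± 4.46% with CXCL14 siRNA and 85.4 ± 2.68% with control siRNA. TGM2 held 32.8 ± 5.24% of it with CXCL14 siRNA and 14.0 ± 2.63% with control siRNA. PADI2 held 37.2 ± 2.47% of the deiminase sum with ATF3 siRNA, 5.06 ± 2.69% with APOE siRNA, 17.4 ± 1.79% with CXCL14 siRNA and 17.1 ± 4.94% with control siRNA. PADI3 held 27.0 ± 5.37% of it with ATF3 siRNA, 56.5 ± 14.0% with APOE siRNA, 56.4 ± 5.95% with CXCL14 siRNA and 55.5 ± 9.49% with control siRNA. The deiminase sum itself was 2.70 ± 0.590 FPKM with ATF3 siRNA, 0.625 ± 0.0680 with APOE siRNA, 2.62 ± 0.193 with CXCL14 siRNA and 1.38 ± 0.0790 with control siRNA (SD, n = 3 each). The range of the deiminase sums overlapped between ATF3 and CXCL14 siRNA, while PADI2 held the largest mean share with ATF3 siRNA and PADI3 with CXCL14 siRNA.

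**Figure D4:**
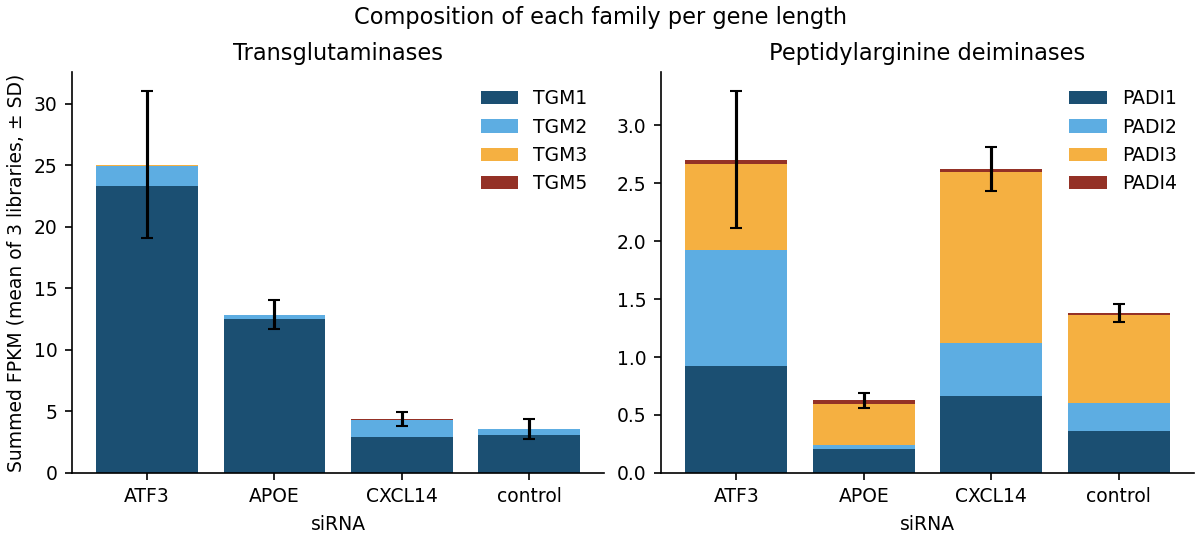
Mean FPKM of each gene, stacked by family (a separate axis for each) and siRNA group; error bars are the SD of the family sum over 3 libraries. The transglutaminase sum is about 25 FPKM with ATF3 siRNA, 12.9 with APOE siRNA, 4.38 with CXCL14 siRNA and 3.57 with control siRNA, nearly all of it TGM1 in the first 2 groups.

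Set against each other, the knockdowns separated these enzymes further. All 5 tested genes were higher with ATF3 siRNA than with APOE siRNA, where 38.2% of all genes were called, 20.3% higher and 17.9% lower; TGM1 differed least (0.89 ± 0.17, edgeR adjusted p = 0.000512), and TGM2 (2.27 ± 0.18, adjusted p = 7.44e-08) and PADI1 (2.15 ± 0.31, adjusted p = 3.6e-05) differed by more than 4-fold. PADI3 was also called (1.05 ± 0.28, edgeR adjusted p = 0.00648), although its libraries overlapped, and the call was lost with limma on log2(FPKM + 1) without a filter (0.36, adjusted p = 0.0594). Between ATF3 siRNA and CXCL14 siRNA 2 genes were higher and 1 lower, against 53.7% of all genes called, 28.4% higher and 25.3% lower. TGM1 was 8.14-fold higher with ATF3 siRNA than with CXCL14 siRNA (log2 difference 3.03 ± 0.19, edgeR adjusted p = 1.65e-09), PADI2 was higher by 1.14 ± 0.21 (adjusted p = 0.000289) and PADI3 was lower by -0.97 ± 0.23 (adjusted p = 0.002). TGM2 and PADI1 were not called between these groups (edgeR adjusted p = 0.346 and 0.125), with 95% intervals of -0.15 to 0.50 and -0.06 to 1.03. Between APOE siRNA and CXCL14 siRNA 1 gene was higher and 4 were lower, against 55.5% of all genes called, 28.9% higher and 26.6% lower. TGM1 was higher by 2.13 ± 0.19 with APOE siRNA (edgeR adjusted p = 8.84e-08). TGM2 was lower by -2.09 ± 0.18, PADI1 by -1.66 ± 0.31, PADI2 by -3.82 ± 0.37 and PADI3 by -2.02 ± 0.26 (edgeR adjusted p = 5.83e-08, 0.00027, 1.99e-07 and 5.05e-06). Scaling by library size alone moved the share of higher genes among all called to 41.5% (against 52.9%) for ATF3 siRNA over CXCL14 siRNA and to 39.6% (against 52.0%) for APOE siRNA over CXCL14 siRNA, and the medians of all genes to -0.10 and -0.11.

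The proteins that transglutaminases join in the envelope were described as a list of 45 genes, 24 of them tested. With ATF3 siRNA 15 of the 24 rose and 9 were not called (median log2 fold change 1.25), with APOE siRNA 18 rose and 3 fell (median 0.70), and with CXCL14 siRNA 5 rose and 10 fell (median -0.25). Of all tested genes 11.2% were higher with ATF3 siRNA, 22.3% higher and 22.5% lower with APOE siRNA, and 27.4% higher and 28.4% lower with CXCL14 siRNA. Involucrin (IVL), an early envelope scaffold, rose by 1.77 ± 0.11 with ATF3 siRNA (edgeR adjusted p = 4.03e-08) and by 1.45 ± 0.11 with APOE siRNA (4.25e-08), and fell by 1.08 ± 0.12 with CXCL14 siRNA (1.58e-06). Elafin (PI3), a protease inhibitor that is itself cross-linked, rose by 1.90 ± 0.10 with ATF3 siRNA and by 2.88 ± 0.10 with APOE siRNA (edgeR adjusted p = 5.89e-09 and 1.58e-11). Periplakin (PPL), a desmosomal plakin of the envelope, rose by 1.37 ± 0.07 with ATF3 siRNA (edgeR adjusted p = 5.89e-09). The small proline-rich gene SPRR1A rose by 2.61 ± 0.16 and SPRR1B by 2.25 ± 0.15 with APOE siRNA, and SPRR2D rose by 1.68 ± 0.12 with ATF3 siRNA and fell by 1.29 ± 0.13 with CXCL14 siRNA (edgeR adjusted p = 4.19e-09, 9.42e-09, 1.45e-07 and 5.53e-07). Near-identical SPRR genes can share reads, so the split between them is uncertain.

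Among 12 substrates of deiminases, 9 of them tested, 2 rose and 1 fell with ATF3 siRNA (median 0.12), 6 rose and 3 fell with APOE siRNA (median 0.61), and 3 rose and 4 fell with CXCL14 siRNA (median -0.20). These 3, 9 and 7 called genes of 9 stand beside 20.4% of all tested genes called with ATF3 siRNA, 44.8% with APOE siRNA and 55.8% with CXCL14 siRNA. The substrates FLG, FLG2, HRNR, TCHH, KRT1, KRT10, KRT2 and loricrin are also in the envelope list. KRT5 and KRT14 are also among the keratinocyte markers, so the substrate counts are not independent of the counts for those sets. Filaggrin (FLG), which is also in the envelope list, had 1.38, 1.29 and 1.87 CPM with ATF3 siRNA, 3.90, 3.56 and 3.12 CPM with APOE siRNA, 1.90, 2.07 and 1.54 CPM with CXCL14 siRNA, and 0.845, 0.425 and 0.619 CPM with control siRNA. Every library with a targeting siRNA exceeded every control library. The log2 difference of FLG from control siRNA was 1.25 ± 0.30 with ATF3 siRNA, 2.47 ± 0.27 with APOE siRNA and 1.52 ± 0.29 with CXCL14 siRNA. FLG passed the filter on low counts through the libraries with a targeting siRNA, in which it was higher. These values are therefore given as a description without a test, although FLG is in the counts of risen genes above. Trichohyalin (TCHH), a hair follicle substrate of PADI3, was named here after its values were seen. TCHH fell by 2.94 ± 0.49 with APOE siRNA and by 1.64 ± 0.41 with CXCL14 siRNA on the log2 scale. PADI3 fell in the APOE and rose in the CXCL14 comparison. The TCHH values are given as a description without a test, although TCHH is in the counts of fallen genes above. Vimentin (VIM), the substrate that fell with ATF3 siRNA, changed by -0.83 ± 0.10 on the log2 scale (edgeR adjusted p = 3.88e-05). The basal keratin KRT14 rose by 0.23 ± 0.07 with ATF3 siRNA (edgeR adjusted p = 0.028). KRT14 also rose by 0.53 ± 0.07 with APOE siRNA and fell by 1.03 ± 0.07 with CXCL14 siRNA (edgeR adjusted p = 1.37e-05 and 3.81e-09).

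Genes that process or break down filaggrin numbered 12 tested of 13. Of these, 1 rose and 1 fell with ATF3 siRNA (median 0.08), and 4 rose and 3 fell with APOE siRNA (median 0.24). With CXCL14 siRNA 1 rose and 2 fell (median 0.15). Of all tested genes 20.4% were called with ATF3 siRNA, 44.8% with APOE siRNA and 55.8% with CXCL14 siRNA. The filaggrin counts with ATF3 and CXCL14 siRNA thus lay below the share over all genes. The gene counted as risen with ATF3 siRNA was ASPRV1, which averaged 0.564 CPM there and 0.0810 CPM with control siRNA. Its control libraries alone would not have passed the filter on low counts, so its levels are given as a description without a test. Bleomycin hydrolase (BLMH), which breaks citrullinated filaggrin fragments into amino acids, fell in all 3 comparisons, by 0.30 ± 0.07 with ATF3 siRNA, 0.75 ± 0.07 with APOE siRNA and 0.55 ± 0.07 with CXCL14 siRNA (edgeR adjusted p = 0.00549, 3.02e-07 and 4.26e-06). Of 9 genes that cut transglutaminase zymogens or inhibit the proteases that do so, all tested, 4 rose and 1 fell with ATF3 siRNA (median 0.37), 4 rose and 3 fell with APOE siRNA (median 0.32), and 2 rose and 1 fell with CXCL14 siRNA (median 0.09), beside the same shares. Cathepsin D (CTSD), a protease that processes TGM1, rose by 0.40 ± 0.09 with ATF3 siRNA, 1.39 ± 0.09 with APOE siRNA and 1.24 ± 0.09 with CXCL14 siRNA (edgeR adjusted p = 0.00608, 9.01e-09 and 1.1e-08). Calpain 2 (CAPN2) fell by 0.77 ± 0.06 with APOE siRNA and by 0.39 ± 0.06 with CXCL14 siRNA (edgeR adjusted p = 2.01e-08 and 1.66e-05).

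**Figure D5:**
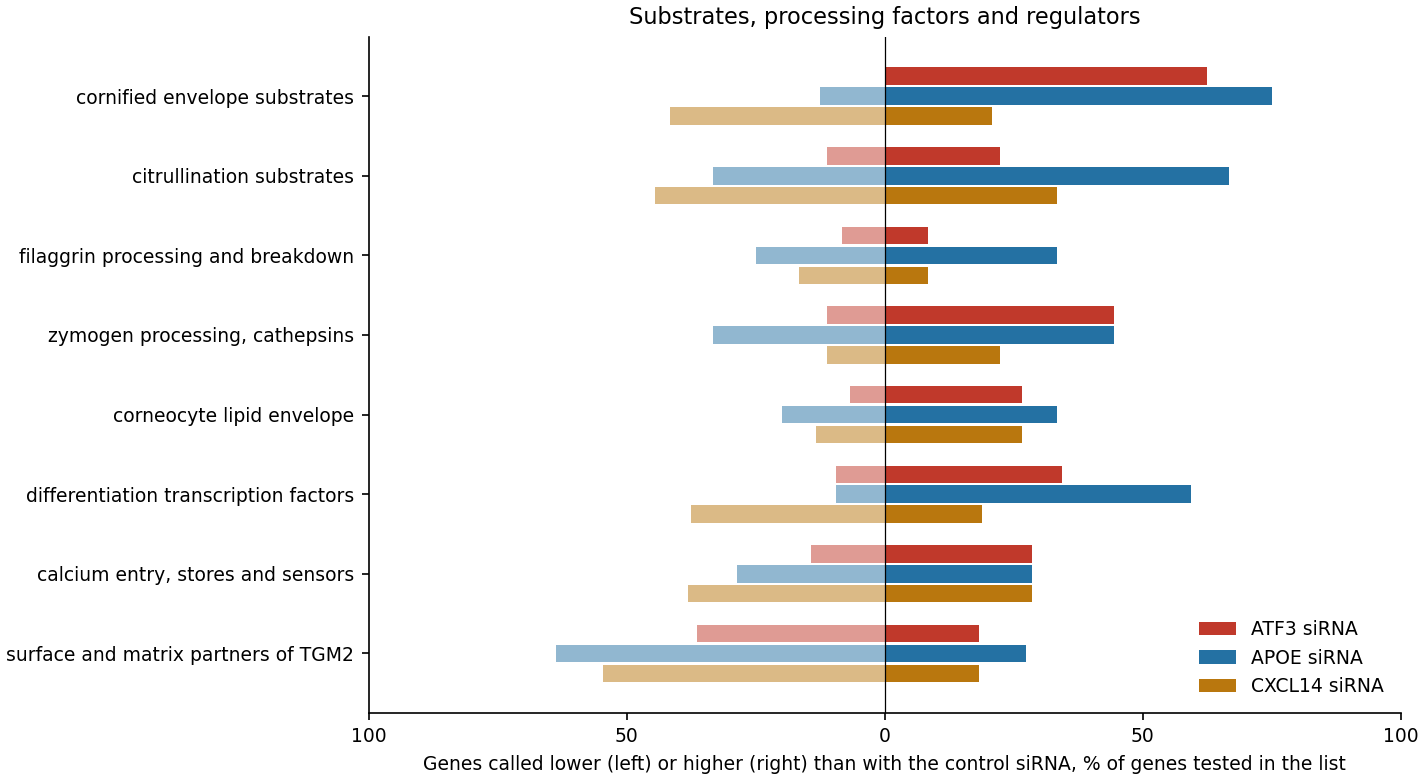
Genes called higher (right, solid bars) or lower (left, pale bars) than with control siRNA in 8 gene lists around the enzymes, as a percent of the genes tested in each list. Of 24 envelope substrates, 15 were higher with ATF3 siRNA, 18 were higher and 3 lower with APOE siRNA, and 5 were higher and 10 lower with CXCL14 siRNA.

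Genes of the corneocyte lipid envelope, to which TGM1 can attach ceramides, numbered 15 tested of 18. With ATF3 siRNA 4 rose and 1 fell (median 0.12), with APOE siRNA 5 rose and 3 fell (median 0.06), and with CXCL14 siRNA 4 rose and 2 fell (median -0.0092). Of all tested genes 20.4% were called with ATF3 siRNA, 44.8% with APOE siRNA and 55.8% with CXCL14 siRNA, so that the lipid envelope counts with APOE and CXCL14 siRNA were near or below the share over all genes. The epidermal lipoxygenase ALOXE3 rose by 0.82 ± 0.18 with ATF3 siRNA (edgeR adjusted p = 0.00414). SPTLC1, a subunit of the first enzyme of sphingolipid synthesis, fell by 1.72 ± 0.08 with APOE siRNA (edgeR adjusted p = 1.3e-10), and the ceramide synthase CERS3 fell by 1.52 ± 0.09 with CXCL14 siRNA (6.75e-10). Of 32 transcription factors of epidermal differentiation, 11 rose and 3 fell with ATF3 siRNA (median 0.14), 19 rose and 3 fell with APOE siRNA (median 0.37), and 6 rose and 12 fell with CXCL14 siRNA (median -0.03), beside the same shares. ZNF750, a factor of terminal differentiation, rose by 1.60 ± 0.19 with ATF3 siRNA and by 2.15 ± 0.19 with APOE siRNA (edgeR adjusted p = 2.44e-05 and 1.48e-07), and GRHL3, a grainyhead-like factor, rose by 0.87 ± 0.08 and 0.95 ± 0.08 with the same siRNAs (2.25e-06 and 1.35e-07). EHF, an ETS factor, fell by 1.64 ± 0.10 with APOE siRNA and by 2.48 ± 0.10 with CXCL14 siRNA (edgeR adjusted p = 2.59e-09 and 1.77e-11), and TP63, the factor of the basal layer, fell by 1.09 ± 0.06 with CXCL14 siRNA (6.13e-10).

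Both enzyme families need calcium, and 21 of 26 genes of calcium entry, stores and sensing were tested. With ATF3 siRNA 6 rose and 3 fell (median -0.0032), with APOE siRNA 6 rose and 6 fell (median 0.06), and with CXCL14 siRNA 6 rose and 8 fell (median -0.11). These 9, 12 and 14 called genes of 21 stand beside 20.4% of all tested genes called with ATF3 siRNA, 44.8% with APOE siRNA and 55.8% with CXCL14 siRNA. ATP2A2, the calcium pump of the endoplasmic reticulum that is mutated in Darier disease, fell by 1.05 ± 0.05 with CXCL14 siRNA (edgeR adjusted p = 1.97e-10). CALML3, a calmodulin-like protein of epithelia, averaged 2.74 CPM with APOE siRNA and 0.407 CPM with control siRNA. Its control libraries alone would not have passed the filter on low counts. The 2 levels are therefore given as a description without a test, although CALML3 is in the count of risen genes above. Of 12 surface and matrix partners of TGM2, 11 were tested; 2 rose and 4 fell with ATF3 siRNA (median -0.05), 3 rose and 7 fell with APOE siRNA (median -0.22), and 2 rose and 6 fell with CXCL14 siRNA (median -0.21), beside the same shares. ADGRG1, an adhesion receptor that binds TGM2, rose by 0.49 ± 0.07 with ATF3 siRNA, 1.20 ± 0.07 with APOE siRNA and 0.95 ± 0.07 with CXCL14 siRNA (edgeR adjusted p = 0.000105, 1.5e-09 and 6.31e-09), while TGM2 fell in the APOE comparison. Thrombospondin 1 (THBS1) rose by 0.40 ± 0.08 with ATF3 siRNA and fell by 1.49 ± 0.08 with APOE siRNA (edgeR adjusted p = 0.00266 and 1.5e-09).

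For each tested enzyme the genes with the closest set of 3 log2 fold changes over control siRNA were sought among the other protein-coding genes with at least 5 CPM in a group, by root mean square difference. RRAD was closest to TGM1 (difference 0.30 on the log2 scale), followed by the envelope precursor SPRR2E (0.53). ELAVL2 (0.49), AVPI1 (0.55) and GBP1 (0.57) were closest to TGM2, and ELFN2 (0.34), VASN (0.38) and JPH2 (0.40) to PADI1. MAN2A2 (0.09), FMNL1 (0.10) and GAB2 (0.10) lay very near PADI3. PADI2 had no close neighbour among these candidates: the nearest, GOLIM4, DHRS2 and BATF2, differed by 1.11, 1.12 and 1.12. The APOE siRNA value of PADI2 rests on 10 reads, and genes under 5 CPM in every group were not searched. These are rankings over 3 comparisons that share their controls and carry no test.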

How the data were processed

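Polyadenylated RNA of 12 libraries, 3 per siRNA group, was sequenced. HISAT2 2.0.5 and featureCounts 1.5.0-p3 are named with hg38 in the submitters' processing notes. The authors deposited read counts per gene with gene lengths, and FPKM values that equal the deposited counts divided by length and DESeq2 size factors; FPKM served only to compare genes and as an alternative. No source used here says whether counting used strand, so antisense reads cannot be separated. Counts were filtered with filterByExpr, scaled by TMM and fitted over all 12 libraries with edgeR 4.0.16 (R 4.3.3; quasi-likelihood, Benjamini-Hochberg adjustment over 14920 genes, called under 0.05), which gave 6 comparisons; no row lacked a gene name. Limma 3.58.1 and DESeq2 1.42.0 were alternatives. The fit was tried on data simulated for ATF3 siRNA against control siRNA with libraries independent of each other. That trial cannot show how the fit does where same-numbered libraries correlate. Depth was 16225691 to 22246755 counts. Members and lists were chosen with earlier results of these data known. From each list the 4 called genes with the smallest adjusted p could be named, and 15 genes of similar pattern by rank. TCHH was named outside this rule. The labels do not say what a replicate number marks, and the libraries were fitted without a replicate block. Deviations of same-numbered libraries correlated above 0.1 in 12 of 18 pairs. These included every pair between APOE and CXCL14 siRNA (0.139 to 0.315). Between any other groups the pairs lay on both sides of 0.1, from -0.037 to 0.307.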

Additional observations from a re-analysis of the deposited data

How the results depend on the processing

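Over the alternatives, 477 of the single-gene values kept their direction and side of the threshold, 15 lost their call, 2 gained one and 4 uncalled values changed sign. Under a filter that asked for 1 CPM in at least 3 libraries plus an average of 50 counts PADI1 and PADI2 were no longer tested. Fewer genes could then be called: 2 for ATF3 siRNA, 3 for APOE siRNA and 2 for CXCL14 siRNA over control siRNA. Between the knockdowns 3 were called for ATF3 siRNA over APOE siRNA, 2 for ATF3 siRNA over CXCL14 siRNA and 3 for APOE siRNA over CXCL14 siRNA. Limma on log2(FPKM + 0.1) called 2 genes for CXCL14 siRNA over control siRNA, PADI1 and PADI2 being lost (both adjusted p = 0.0514); the cause was not tested. The sign changes came with a library left out: PADI3 with ATF3 siRNA (-0.21 to 0.23; 0.23 without ATF3 siRNA library 2 and 0.06 without control library 2) and TGM1 with CXCL14 siRNA (-0.25 to 0.13; 0.03 without CXCL14 siRNA library 3 and 0.13 without control library 3). TGM2 with APOE siRNA ranged from -0.77 to -0.18, with adjusted p from 0.00565 to 0.208, and PADI1 with CXCL14 siRNA from 0.29 to 1.09, with adjusted p from 0.00186 to 0.0801. Log2(FPKM + 1) gave the smallest values of low genes, -0.26 for PADI2 with APOE siRNA. With the replicate number as a block the calls were 4, 4 and 4 against the control and 5, 3 and 5 between the knockdowns, with no call changed; 12 of 18 same-numbered pairs correlated above 0.1 and 9 of 12 libraries correlated best with their own number, a hint from the data that the numbers may share a source. Against control, all-gene calls were 3041 with ATF3 siRNA, 6681 with APOE siRNA and 8327 with CXCL14 siRNA, and with the block 4138, 7436 and 8970. ATF3 siRNA gave 1916 without control library 1 and 1995 with limma on log2(FPKM + 1) and no filter. TGM3, TGM5 and PADI4 had at most 10 counts in a library and were not called with no filter (adjusted p from 0.122 to 1).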
